A study of Mus musculus with 2 samples.

Results

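Genes of metal buffering and of the thioredoxin and glutathione systems were measured in naive CD8+ T cells and in activated ones, with 1 Affymetrix mouse whole-genome array for each. The list held 37 genes, and its members were every probe set that the platform annotation assigns to a single gene of that list. Of these genes, 35 had such a probe set, out of 18193 genes on the arrays. They were read by 76 of the 45037 probe sets other than controls. Prdx5 and Prdx6 were not analysed here. The naive group was purified naive CD8+ T cells and the activated group was proliferating CD8+ T cells 72 h after activation, both from pmel-1 mice. In these mice the T cells bear a transgenic receptor that recognises a melanocyte antigen, and this holds for both groups. The sources used here do not give age, sex, source organ or the activating agent. Each array held RNA pooled from 4 independent experiments, so the spread between experiments cannot be seen. Every difference below is between 2 single arrays, without a test, and that number limits its precision.

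Metallothioneins are small cysteine-rich proteins that bind zinc and copper, and the zinc-sensing factor MTF1 switches on their genes through metal response elements. Thioredoxin and glutathione are the main carriers of reducing power for protein thiols and peroxides. Thioredoxin reductase and glutathione reductase recharge them with electrons from NADPH, while many peroxiredoxins and glutathione peroxidases spend those electrons on peroxides. The factor NRF2, encoded by Nfe2l2 and held down by KEAP1, switches on many of these genes through antioxidant response elements. In T cells, activation brings growth, a burst of metabolism and a need for thiol reduction during DNA synthesis.

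Promoters of 6 members are shown as examples. They are those of the metallothionein pair, the zinc exporter gene Slc30a1, the thioredoxin inhibitor gene Txnip, and the NRF2 target genes Txnrd1 and Gclm. Each sequence is the RefSeq window of assembly GRCm38.p6, from 250 bases before to 50 bases after the annotated start, read 5′ to 3′ on the gene's strand, which is the plus strand for all 6. Such windows were found for 33 of the 37 listed genes, 46 windows in all. Capitals mark the core of the metal response element, TGCACNC or TGCGCNC on either strand, in the first 3 sequences. They lie at chr8:94178839-94179138 for Mt1, chr8:94172368-94172667 for Mt2 and chr1:191906531-191906830 for Slc30a1.
Mt1: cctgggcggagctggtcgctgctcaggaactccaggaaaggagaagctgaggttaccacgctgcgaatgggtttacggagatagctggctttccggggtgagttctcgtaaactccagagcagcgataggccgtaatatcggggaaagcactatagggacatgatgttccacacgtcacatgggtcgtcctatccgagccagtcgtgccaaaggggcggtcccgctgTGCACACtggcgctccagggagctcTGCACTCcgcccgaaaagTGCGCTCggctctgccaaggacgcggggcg
Mt2: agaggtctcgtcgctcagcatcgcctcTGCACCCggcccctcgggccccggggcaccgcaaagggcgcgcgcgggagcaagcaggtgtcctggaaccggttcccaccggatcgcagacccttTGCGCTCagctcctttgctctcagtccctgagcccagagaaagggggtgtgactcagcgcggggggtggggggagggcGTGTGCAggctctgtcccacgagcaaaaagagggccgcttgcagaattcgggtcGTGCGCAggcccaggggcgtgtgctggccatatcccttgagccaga
Slc30a1: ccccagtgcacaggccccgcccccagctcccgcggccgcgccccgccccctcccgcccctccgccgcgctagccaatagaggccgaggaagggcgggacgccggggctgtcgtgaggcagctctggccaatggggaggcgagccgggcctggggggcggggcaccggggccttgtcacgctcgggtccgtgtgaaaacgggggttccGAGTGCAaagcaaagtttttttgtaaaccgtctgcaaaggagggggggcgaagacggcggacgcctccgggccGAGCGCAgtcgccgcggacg
The Mt1 window held 3 metal response element cores and the Mt2 window 4, numbers reached or passed by 1.97% and 0.517% of 32851 RefSeq windows. Slc30a1 held 2 cores, a number reached or passed by 7.11% of windows. At least 1 core stood in 25.7% of all windows and in 12 of the 46 member windows (26.1%). These counts hold for the annotated starts. Whether the RefSeq start of Mt1 is the main start used in these cells was not tested, and another start would shift its window. The annotated starts of Mt2 and Mt1 lie 6471 bases apart on chromosome 8.

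In the Txnip window, at chr3:96557707-96558006, capitals mark a match to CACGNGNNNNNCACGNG, a spaced pair of E-box-like letters of the kind called a carbohydrate response element. In the second of 3 Txnrd1 windows, at chr10:82858956-82859255, and in the Gclm window, at chr3:122245307-122245606, they mark the antioxidant response element core TGACNNNGC on either strand. The other Txnrd1 windows held no such core.
Txnip: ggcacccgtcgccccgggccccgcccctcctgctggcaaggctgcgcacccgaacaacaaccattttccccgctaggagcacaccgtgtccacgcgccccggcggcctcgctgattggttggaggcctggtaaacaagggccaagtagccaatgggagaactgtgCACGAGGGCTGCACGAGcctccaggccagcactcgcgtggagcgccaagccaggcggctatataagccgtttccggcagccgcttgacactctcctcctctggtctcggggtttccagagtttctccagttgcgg
Txnrd1: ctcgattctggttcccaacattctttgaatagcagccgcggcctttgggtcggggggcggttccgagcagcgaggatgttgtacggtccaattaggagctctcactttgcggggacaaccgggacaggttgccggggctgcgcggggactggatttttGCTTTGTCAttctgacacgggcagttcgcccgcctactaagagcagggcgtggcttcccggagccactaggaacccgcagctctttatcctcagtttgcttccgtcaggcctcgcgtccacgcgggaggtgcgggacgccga
Gclm: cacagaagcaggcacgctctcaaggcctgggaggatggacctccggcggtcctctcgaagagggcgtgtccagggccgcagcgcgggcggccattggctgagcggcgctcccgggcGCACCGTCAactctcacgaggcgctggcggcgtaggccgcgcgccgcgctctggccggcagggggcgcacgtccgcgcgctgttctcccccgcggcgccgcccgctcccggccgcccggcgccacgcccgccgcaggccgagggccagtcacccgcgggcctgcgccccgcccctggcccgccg
The spaced pair in Txnip lies 85 to 69 bases before the start and was found in 16 of 32851 windows (0.0487%). This motif was added after the Txnip sequence had been seen, so its presence there is a description. The antioxidant response element core stood in 12.4% of all windows and in 7 of 46 member windows (15.2%), those of Mt2, Slc30a1, Txnrd1, Srxn1, Gclm, Sod1 and Nfe2l2. In Gclm it overlaps a metal response element core. A match is a run of letters and not a measured binding site, and the absence of a match says only that these letters are not in the window.

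**Figure D1:**
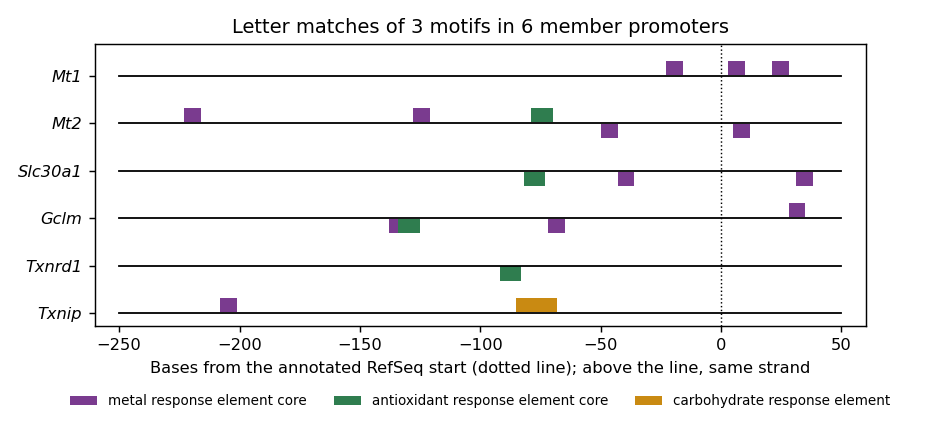
Positions of letter matches to the metal response element core, the antioxidant response element core and the carbohydrate response element in 6 member promoters, in bases from the annotated RefSeq start, with matches on the gene's strand above each line and those on the other strand below it. Mt1 and Gclm each have 3 and Mt2 has 4 metal response element cores, and Txnip has the only carbohydrate response element match among the member windows.

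A gene was called higher or lower by a size rule that asks for a ratio of at least 1.4 between the arrays and a gap of more than 100 between the deposited intensities. For the ratio, an intensity under 100 counted as 100, so that a fold with 1 value under 100 is a lower bound. No ratio was formed where both lay under 100, and a gene is called measured when at least 1 value reached 100. Each gene is given by its brightest probe set. Intensities of different genes come from different probes and are not set against each other. The deposited intensities had medians of 56.2 on the naive and 52.3 on the activated array, and 57.3% of probe sets lay under 100 on both. CD8 T cell identity genes were all above 100 on both arrays, 10 of 10 with a probe set. Of these, 4 were lower in activated cells (Cd8b1, Thy1, Cd2 and Cd247), and the sum of the 10 was 43960.8 on the naive and 32091 on the activated array, while Cd4 lay under 100 on both (45.1 and 50.5). Some marker genes of other cells had higher summed intensities on the naive array. The summed intensity of 14 B cell genes was 13577.0 on the naive and 4069 on the activated array. For 15 myeloid genes, of which 8 were measured, it was 9264 and 3686, with Ctss (5486 and 1663) the largest part. For 9 erythroid genes it was 7360.3 and 444. The globin gene Hbb-b2 (6852 and 1) made up nearly all of the erythroid sum, while Hba-a1 and Hba-a2 lay under 100 on both arrays. Sums were also higher on the naive array for dendritic cell (2434.2 and 600.2), NK cell (693.5 and 272.0) and stromal or endothelial genes (735.5 and 454.0). Neutrophil (384 and 416), platelet (781 and 643.5) and CD4 T cell genes (469.8 and 379) had sums closer to each other. In bulk samples, fewer cells of a type and less RNA per cell cannot be told apart.

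Of the 32 measured members, 14 were higher and 5 lower in activated cells. These are 43.8% and 15.6% of the members, while the same rule called 23.7% of all 9842 measured genes higher and 20.6% lower. The members were chosen with earlier results of these data known, so these shares describe the list and are not a test. The median log2 ratio of activated over naive was 0.50 for the members and 0.01 for all measured genes. With a fold minimum of 2, 7 members were higher and 2 lower, against 12.1% and 9.19% of all measured genes. The higher side held the metallothioneins, cytosolic thioredoxin, every measured peroxiredoxin, glutathione reductase and enzymes of glutathione and quinone chemistry. The lower side held the zinc exporter, the thioredoxin inhibitor, catalase, the catalytic subunit of glutathione synthesis and Nfe2l2. Over single probe sets, 24 of 60 measured ones were higher (40.0%) and 9 lower (15.0%), against 23.2% and 19.2% of all measured single-gene probe sets.

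**Figure D2:**
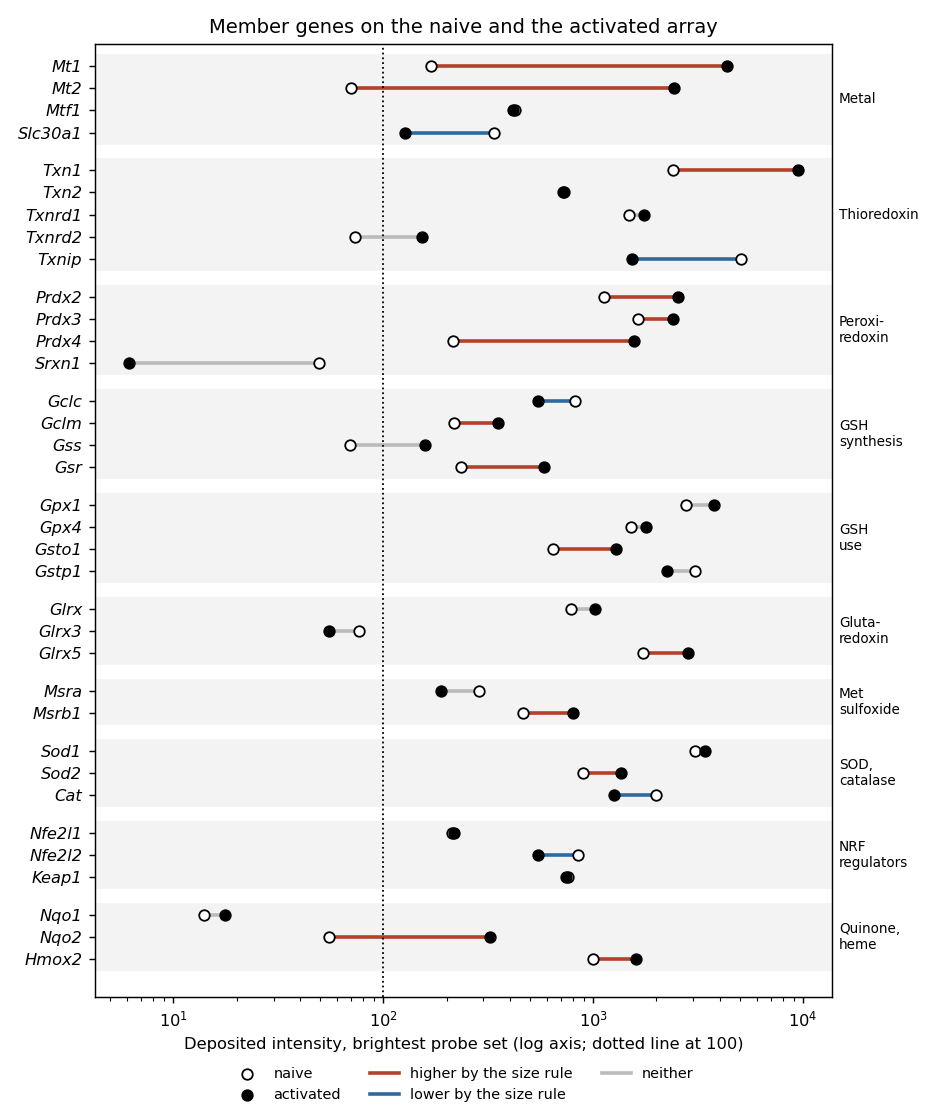
Deposited intensity on a log axis of the brightest probe set of each of 35 members on the naive (open points) and activated (filled points) array, 1 array each, grouped by role, with the line coloured by the size rule and a dotted line at 100. Mt1, Mt2 and Prdx4 have the longest lines towards the activated array, and Txnip and Slc30a1 the longest lower lines among members past the rule.

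The metallothionein genes had the largest ratios of all measured members. For Mt1 the intensity was 169.6 in naive cells and 4320.1 after activation. For Mt2 it was 69.9 and 2429. The pair thus went from near or under the floor of 100 to well above it, by 25.5-fold for Mt1 and at least 24.3-fold for Mt2. Their log2 ratios of 4.67 and at least 4.60 lay at percentiles 99.96 and 99.94 of the measured genes. Mt1 rested on 1 measured probe set, whose suffix _s_at marks probes that can match more than 1 transcript, and its other probe set lay under 100 on both arrays (1.44 and 3.51). The extent to which the Mt1 value includes RNA of a related gene was not tested. Their near relatives Mt3 and Mt4 lay under 100 on both arrays.

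The 2 genes around them in zinc handling did not follow the pair. Mtf1, the zinc-sensing activator of metallothionein genes, was at 424 and 414, a log2 ratio of -0.04. Its probe sets went apart, with log2 ratios from -0.67 to 0.98. The lowest (435 and 273) passed the rule as lower, and the highest missed it because the intensities differed by 98.6. Slc30a1 encodes ZnT1, the zinc exporter of the plasma membrane and itself a known MTF1 target. It was at 335 on the naive and 126 on the activated array (2.65-fold lower), by its only probe set above 100. Its other probe set was at 84.9 and 89.0, so no ratio was formed there. In activated cells the metallothionein transcripts were thus higher and the exporter transcript lower, the latter by 1 of 2 probe sets. At least 1 metal response element core stood in each of the 3 promoters, as in 25.7% of all windows. The part of these letters in the differences was not tested.

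In the thioredoxin system the cytosolic carrier and its inhibitor lay on opposite sides. Txn1, cytosolic thioredoxin, was at 2401.8 and 9476 (3.95-fold higher, log2 ratio 1.98). Txnip, whose product binds and inhibits thioredoxin and limits glucose uptake, was at 5049.9 and 1537 (3.29-fold lower). A further probe set of Txnip gave the same direction, at 3105 and 864. The log2 ratio of Txnip, -1.72 by the brightest probe set, lay at percentile 2.53 of the measured genes, and that of Txn1 at percentile 96.6.

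The reductases and the mitochondrial carrier differed less. Txnrd1, the cytosolic reductase of thioredoxin and a selenoprotein, was at 1479.9 and 1749.8 (1.18-fold, not past the rule). Its other probe sets were higher, at 137 and 260.3 and at 121 and 231, so that its 3 probe sets ranged from 0.24 to 0.93 in log2 ratio. Txn2, mitochondrial thioredoxin, was at 729 and 719, and its 3 probe sets ranged from -0.02 to 0.47 with none past the rule. Txnrd2, the mitochondrial reductase, was at 73.1 and 153 (at least 1.53-fold), and missed the rule because the intensities differed by 79.5.

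All 3 measured peroxiredoxins, enzymes that reduce peroxides, were higher in activated cells, against 23.7% of all measured genes. Prdx5 and Prdx6, and Prdx1 of the wider pathway, were not analysed, so only part of the family was read. Prdx4, the form of the endoplasmic reticulum, was at 216 and 1569.9 (7.28-fold). Its 3 measured probe sets lay close together, at log2 ratios of 2.86 to 2.94. Prdx2, a cytosolic form abundant in red cells, was at 1123 and 2525 (2.25-fold), and both of its probe sets passed the rule. Prdx3, the mitochondrial form, was at 1642 and 2398 (1.46-fold), just past the fold minimum, and was not called under quantile or loess scaling. Of 4 measured erythroid genes, Hbb-b2 was lower (6852 and 1), while Slc4a1 (107 and 105), Klf1 (84.5 and 124) and Alas2 (127 and 1) did not pass the rule. Their part in the Prdx2 value was not tested. Srxn1, sulfiredoxin, which repairs over-oxidised peroxiredoxins, lay under 100 on both arrays by all 4 of its probe sets (49.1 and 6.11 for the brightest).

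**Figure D3:**
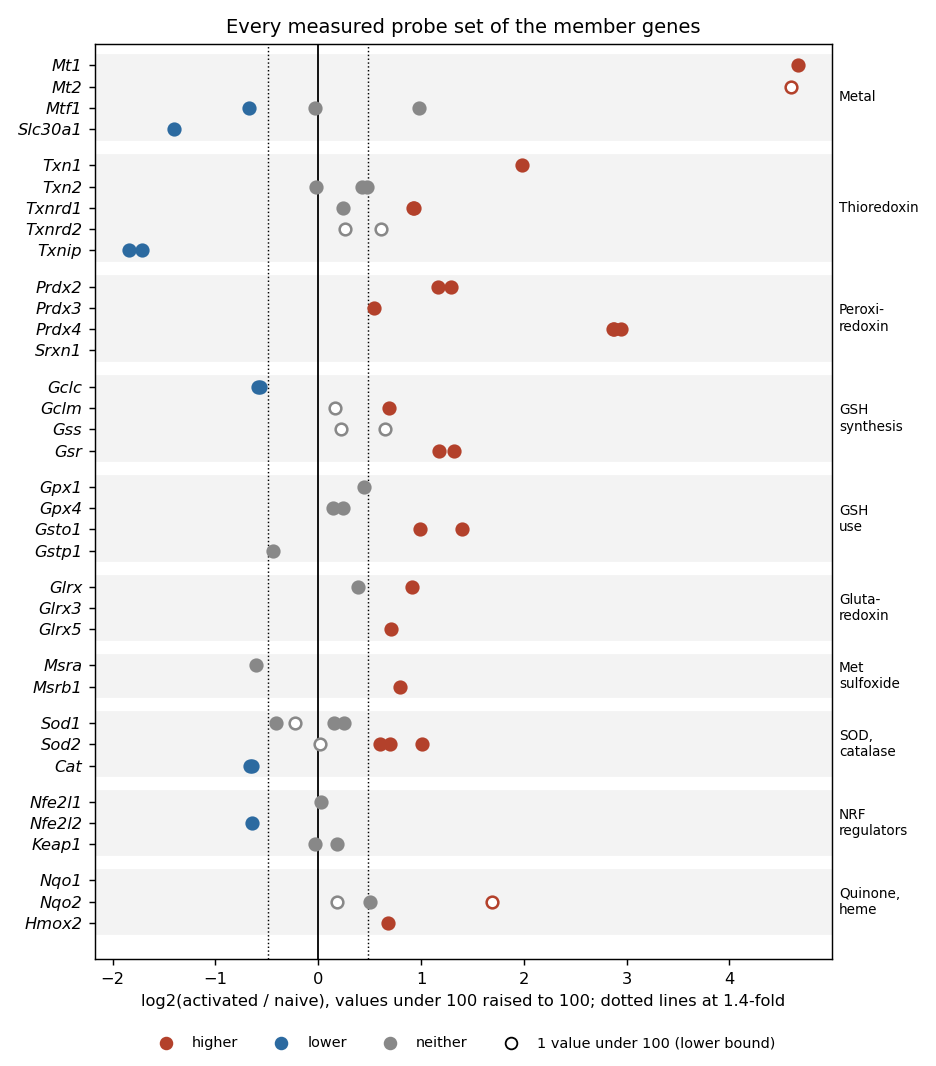
log2 ratio of activated over naive for each of the 60 measured probe sets of the members, coloured by the size rule, with open points for lower bounds and dotted lines at 1.4-fold. Probe sets of Prdx4, Txnip, Gclc and Cat lie close together, while those of Mtf1, Nqo2 and Sod2 spread over about a log2 unit or more.

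Glutathione is made in 2 steps, of which the first, by glutamate-cysteine ligase, limits the rate. The subunits of that ligase lay on opposite sides. Gclc, the catalytic subunit, was at 816 and 543 (1.502-fold lower), with a further probe set at 695 and 468. Gclm, the modifier subunit, was at 218 and 352 (1.61-fold higher), although its other probe set gave a log2 ratio of only 0.17 and the mean of both did not pass the fold minimum. Gss, which completes the tripeptide, was at 69.0 and 157 (at least 1.57-fold, not past the rule, with a difference of 88.3). Gsr, glutathione reductase, which recycles the oxidised form, was at 234 and 584 (2.498-fold higher), and both of its probe sets passed. Among the 4 genes of glutathione supply, the recycling enzyme had the largest ratio.

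Of the enzymes that use glutathione, 1 of 4 passed the rule, as higher (25.0%, near the 23.7% of all measured genes). Gsto1, an omega-class transferase with thioltransferase activity, was at 646 and 1281 (1.98-fold higher), and its other probe set at 251 and 663 had a log2 ratio of 1.40. Gpx1, the main peroxidase for hydrogen peroxide, was at 2761 and 3765 (1.36-fold), just under the fold minimum. Gpx4, which protects membranes from lipid peroxides, was at 1514 and 1784 (1.18-fold). Gstp1, a pi-class transferase, was at 3059 and 2258 (1.35-fold lower), also just short, and was called lower under quantile and loess scaling. Both peroxidases are selenoproteins, and of the 5 selenoprotein genes among the members 1, Msrb1, was higher by its brightest probe set (against 23.7% of all measured genes). That grouping was made after the values were seen.

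Glutaredoxins reduce mixed disulfides of proteins with glutathione, and the monothiol forms serve iron-sulfur cluster assembly. Glrx5, the mitochondrial monothiol form, was at 1726 and 2818 (1.63-fold higher). Glrx, the cytosolic dithiol form, was at 779.9 and 1020.0 (1.31-fold, not past the rule), while its other probe set was at 272 and 510.0 and passed. Glrx3 lay under 100 on both arrays by its only single-gene probe set (76.5 and 55.1). The enzymes that repair oxidised methionine went apart. Msrb1, a selenoprotein acting on the R form of methionine sulfoxide, was at 463 and 802 (1.73-fold higher). Msra, acting on the S form, was at 284 and 187 (1.52-fold lower in ratio), and missed the rule because the intensities differed by 97.15.

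Superoxide dismutases turn superoxide into hydrogen peroxide, and catalase removes the latter. Sod2, the mitochondrial dismutase, was at 892 and 1356 (1.52-fold higher), with 3 of its 4 probe sets past the rule. Sod1, the cytosolic dismutase, was at 3049 and 3396 (1.11-fold), and none of its 4 measured probe sets passed, with log2 ratios from -0.41 to 0.25. Cat, catalase, was at 1994 and 1258 (1.58-fold lower), and both of its probe sets passed. Cat is abundant in erythroid and myeloid cells. On the activated array 1 of 4 measured erythroid and 7 of 8 measured myeloid marker genes were lower, against 20.6% of all measured genes. Summed intensities were 7360.3 and 444 over all erythroid and 9264 and 3686 over all myeloid marker genes. The largest part of the myeloid sum came from Ctss (5486 and 1663). Nearly all of the erythroid sum came from the globin gene Hbb-b2 (6852 and 1), and the part of these cells in the Cat value was not tested. The mitochondrial members Prdx3, Sod2 and Glrx5 were higher, while Txn2 and Txnrd2 were not past the rule, a grouping also made after the values were seen.

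The regulators of the antioxidant response showed no higher member. Nfe2l2, encoding NRF2, was at 848 and 544 (1.56-fold lower), by its only measured probe set. Keap1, its inhibitor, was at 761 and 742 (log2 ratio -0.04), and Nfe2l1, encoding the related factor NRF1, was at 213 and 217 (0.02). Nqo1, a quinone reductase widely used as a readout of NRF2, lay under 100 on both arrays (13.9 and 17.6), as did Srxn1 above. Of the NRF2 target genes whose promoters are shown, Gclm was higher (log2 ratio 0.69). Txnrd1 was not past the rule by its brightest probe set (0.24), while its other probe sets were higher. The activity of NRF2 was not tested. Nqo2, a quinone reductase that does not depend on NADPH, was at 55.0 and 323 (at least 3.23-fold higher), although its 3 probe sets ranged from 0.18 to 1.69 in log2 ratio and only the brightest passed. Hmox2, the constitutive heme oxygenase, was at 998.5 and 1599 (1.60-fold higher).

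**Figure D4:**
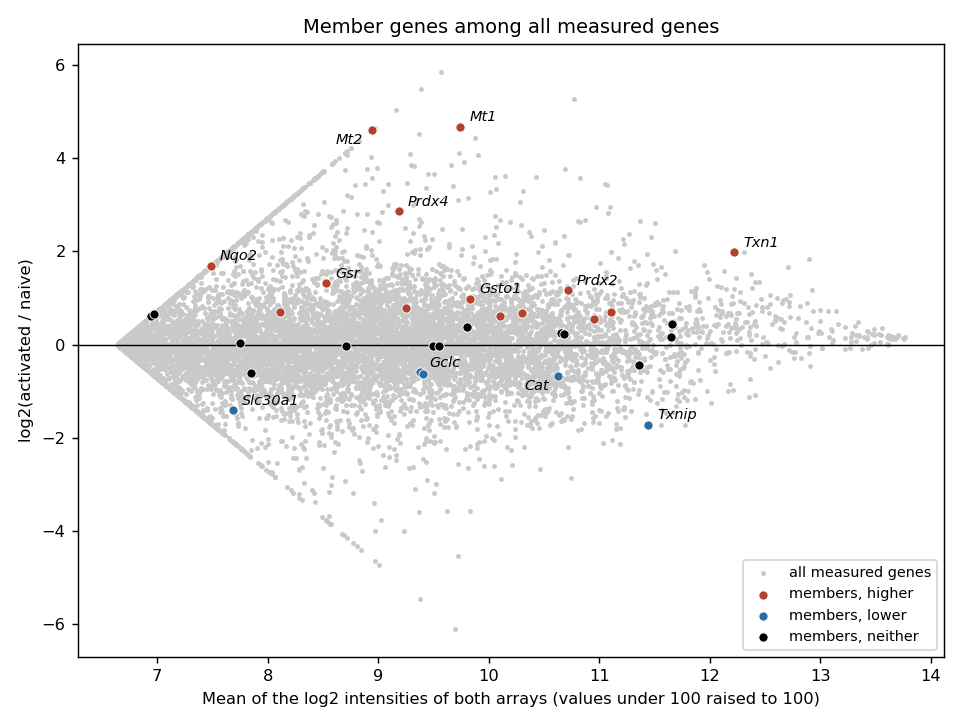
log2 ratio of activated over naive against the mean log2 intensity of both arrays for all 9842 measured genes (grey) and the 32 measured members (coloured by the size rule), with values under 100 raised to 100. Mt1 and Mt2 lie at the upper edge of all genes, Prdx4 and Txn1 above most genes, and Txnip and Slc30a1 below most.

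The agreement between probe sets limits how far small ratios can be read. Among 19 members with several measured probe sets, the log2 ratios of probe sets of the same gene had a standard deviation of 0.40, against 0.47 over 4292 genes. The fold minimum of 1.4 is of similar size on the log2 scale. Probe sets of Keap1, Mtf1, Sod1 and Txn2 lay on both sides of 0, and no member was called both higher and lower.

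The wider pathway, taken from 4 lists of 162 other genes, lay near the background in its counts. Higher calls went to 27 of 108 measured genes (25.0%) and lower calls to 20 (18.5%), near the 23.7% and 20.6% of all measured genes, and the median log2 ratio was 0.06. Among metallothionein, zinc and copper genes, 6 of 23 were higher (26.1%) and 2 lower (8.7%). Slc31a1, the copper importer CTR1, was at 97.9 and 433 (at least 4.33-fold higher). Slc39a8, a zinc importer, was at 78.1 and 369 (at least 3.69-fold higher), and the copper chaperone of the respiratory chain Cox17 was at 2580.5 and 7761 (3.01-fold higher). Slc31a2 was at 259 and 105 (2.47-fold lower), and the zinc transporters Slc39a7 (695 and 692) and Slc39a14 (280.0 and 282) lay nearest to no difference. In all, 15 of the 23 did not pass the rule.

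Among other thioredoxin-fold, sestrin and selenium genes, 5 of 34 were higher (14.7%) and 7 lower (20.6%). Over all measured genes the shares were 23.7% and 20.6%. The 4 largest differences were all lower. Arrdc3, an arrestin relative of Txnip, was at 744 and 168 (4.43-fold lower), and Selenop, the plasma selenium carrier, at 4511 and 1091 (4.14-fold lower). Sesn3, a stress-induced sestrin, was at 2572 and 945 (2.72-fold lower), and Tmx4 was 2.44-fold lower. Txndc17 (2071 and 2102) and Tmx1 (1738 and 1719) lay nearest to no difference. Selenop is also made by macrophages, and 7 of 8 measured myeloid marker genes were lower too (all 15 summed 9264 and 3686, with Ctss the largest part). Their part in the Selenop value was not tested.

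Among other glutathione genes, 9 of 23 were higher (39.1%) and 2 lower (8.7%), against 23.7% and 20.6% of all measured genes. Gstt1, a theta-class transferase, was at 2.92 and 343 (at least 3.43-fold higher), and Cth, which makes cysteine from cystathionine, at 1 and 301 (at least 3.01-fold higher). Chac2, which degrades glutathione, was at 159 and 398 (2.50-fold higher). Mgst2, a microsomal transferase, was at 2071 and 837 (2.47-fold lower), while Gstk1 (171 and 175) and Chac1 (225 and 219.7) lay nearest to no difference among genes at 100 or more on both arrays. Ggt6 (78.5 and 101) has only a bound.

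Among superoxide and NRF-related genes, 7 of 28 were higher (25.0%) and 9 lower (32.1%), against 23.7% and 20.6% of all measured genes. Bach1, a repressor that competes with NRF2 for the same elements, was at 787 and 123 by its brightest probe set (6.41-fold lower), with a further probe set at a log2 ratio of -0.69. Maf was at 233 and 13.4 (at least 2.33-fold lower), and another probe set gave a log2 ratio of -0.02. The pentose phosphate genes Tkt (3435 and 8660, 2.52-fold) and Pgd (782 and 1909, 2.44-fold), which feed NADPH and ribose supply, were the largest higher ones. The 3 probe sets of Tkt ranged from 0.12 to 1.44 in log2 ratio, and Taldo1 of the same pathway was at 1523 and 1392 (-0.13, not past the rule). Mafk (402 and 400.0) and Me1 (133 and 136) lay nearest to no difference among genes at 100 or more on both arrays, and Rbx1 (101 and 44.5) has only a bound. Nfe2l2 and its competitor Bach1 were thus both lower in activated cells.

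**Figure D5:**
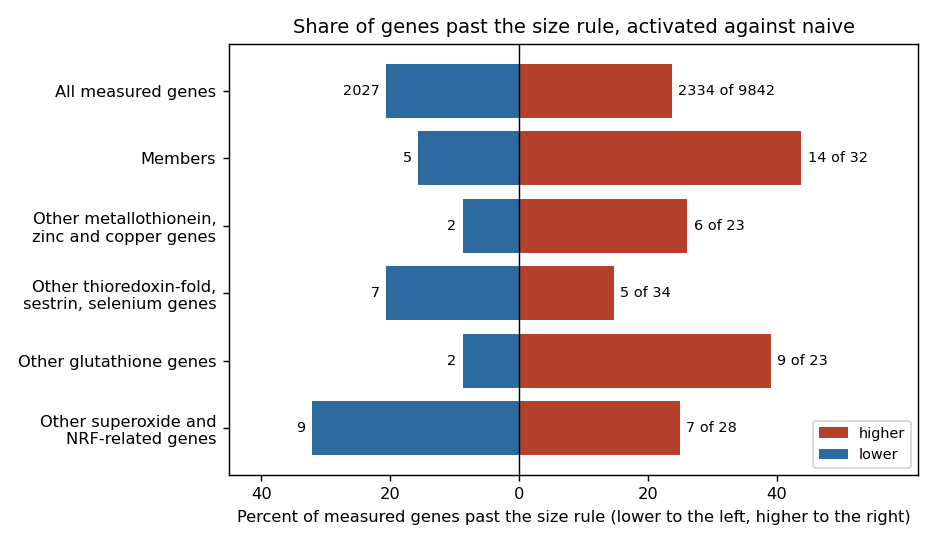
Percent of measured genes past the size rule in all measured genes, the members and 4 lists of other pathway genes, with lower genes to the left, higher genes to the right and counts beside the bars. The members have 14 of 32 genes higher, against 2334 of 9842 over all measured genes, and were chosen with earlier results of these data known.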

How the data were processed

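RNA of 2 pools, 1 of naive and 1 of activated CD8+ T cells, was measured on Affymetrix Mouse Genome 430 2.0 arrays. The authors deposited linear-scale intensities, 1 for each probe set, computed with the perfect-match minus mismatch model of dChip and normalized by its invariant set method, per the design text. Present calls (GCOS 1.3, per the submitters' processing notes) and confidence bounds were not used here. The study's own rule combines them with a fold above 1.4 and a difference above 100, so the size rule keeps only its intensity part. Genes came from the platform annotation, in which 34945 probe sets had 1 symbol, 932 several and 9160 none. Entrez identifiers of 34741 matched RefSeq (GRCm38.p6) and changed 0 symbols. Promoter windows are RefSeq's, and protein sequences were not used here. Every member is named. In each other list up to 4 genes past the rule with the largest ratios and up to 2 nearest to 0 are named, and others such as Mt3, Mt4, Me1, Chac1, Taldo1 and those among the other observations were chosen after their values were seen. The members and lists were chosen with earlier results of these data known. The size rule and scalings were tested on simulated data. Alternatives were other fold, difference and floor settings, and median, quantile and loess scaling. Others were the mean over probe sets, called by the fold minimum alone, and leaving out probe sets with the suffixes _s_at and _x_at. Python 3.11.15 with numpy 2.4.6, pandas 2.3.3 and statsmodels 0.14.6 was used.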

Additional observations from a re-analysis of the deposited data

Results flagged for a closer look

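Probe sets that name Glrx3 together with Gm12669 were outside the comparison, because the annotation gives them to 2 genes, and carried signal on both arrays. The brightest of them was at 1724 on the naive and 3145 on the activated array, a log2 ratio of 0.87. A second was at 1272 and 2010.4, a log2 ratio of 0.66. Both passed the size rule as higher, while the probe set that names Glrx3 alone lay under 100 on both arrays (76.5 and 55.1). The gene behind the shared signal cannot be told apart. No other result met a criterion for a closer look, since groups of 1 array have no spread.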

How the results depend on the processing

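A fold minimum of 2 in place of 1.4 gave 7 of 32 measured members higher and 2 lower. It also called 13 and 3 of their 60 measured probe sets, and 13 and 12 of 108 measured other pathway genes. The shares over all measured genes were 12.1% higher and 9.19% lower. This setting calls fewer genes by construction. Under the other 9 alternatives each of these counts stayed within 1.5 times its value, and the members' median log2 ratio ranged from 0.39 to 0.50. Of 317 values of single members under all 10 alternatives, 294 kept their side of the rule and 0 of those called changed sign. Beside the fold minimum, calls were lost for Prdx3 (quantile and loess scaling) and Gclm (difference minimum of 200 and mean of probe sets). Calls were gained for Gss and Txnrd2 (difference minimum of 50) and for Gstp1 (quantile and loess). They were also gained for Msra (difference minimum of 50, median scaling and mean of probe sets), and for Glrx and Txnrd1 (mean of probe sets). The mean of probe sets was called by the fold minimum alone, without the difference minimum. Msra has 1 probe set, so its ratio was unchanged there and its call came from leaving out the difference minimum. Without probe sets of the suffixes _s_at and _x_at, Mt1 had no measured value. No paired analysis was possible because each group is 1 array. Signal near the floor of 100 limits Mt2, Nqo2, Txnrd2 and Gss, whose folds are lower bounds.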

Other observations

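Subunits of the phagocyte NADPH oxidase, which makes superoxide, were lower in activated cells where measured, against 20.6% of all measured genes. These genes were chosen after their values were seen. Cyba was at 3081 and 1861 (1.66-fold lower), Ncf4 at 1096 and 489 (2.24-fold), Ncf1 at 296 and 139.6 (2.12-fold, with another probe set at -0.20 in log2 ratio) and the GTPase gene Rac2 at 4871 and 2495 (1.95-fold). Cybb, the catalytic subunit, lay under 100 on both arrays (91.4 and 26.8). Of the measured marker genes, 7 of 9 B cell and 7 of 8 myeloid ones were lower too. Their lists had summed intensities of 13577.0 and 4069 and of 9264 and 3686, and the part of these cells was not tested.

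Among selenium genes, chosen after their values were seen, calls went both ways. Sephs1 and Sephs2, encoding selenophosphate synthetase family members, were higher in activated cells, the first at 359 and 688 (1.92-fold) and the second at 654 and 1244 (1.90-fold). Secisbp2 (-0.44), Sepsecs (-0.34) and Pstk (0.30 in log2 ratio) did not pass. The nuclear selenoprotein gene Selenoh was at 1543 and 3581 (2.32-fold higher). Selenoo was at 568 and 316 (1.80-fold lower).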
